A study of Rattus norvegicus with 4 samples.

Results

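The 6 genes described here are Egr1, Myc, Ifrd1, Pim3 and Npm1, which respond early to growth signals or stress, and Cdk1, which drives cells into mitosis. They were chosen by name, as every probe whose annotation gave a single symbol equal to one of them after updating through the Entrez identifier. This gave 11 of 1936 probes and 6 of 958 genes: 5 probes for Cdk1, 2 for Myc and 1 for each of the others. Male Sprague-Dawley rats received alpha-naphthylisothiocyanate (ANIT, 75 mg/kg in olive oil) or olive oil alone by intraperitoneal injection, and their livers were taken 18 h later. ANIT is a toxicant of bile duct cells and hepatocytes that impairs bile flow. For each treatment the RNA of 3 rats was pooled, and all 4 spotted cDNA arrays carried this same pair of pools. The ANIT pool was labelled with Cy5 for arrays 1 and 3 and with Cy3 for arrays 2 and 4. The animals' spread was therefore not measured, and no test of the treatment was possible. Each error is an SD within dye orientation (n = 4 arrays) and covers hybridisation only. Because whole liver was used, fewer cells of a type and less RNA per cell cannot be told apart.

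Egr1 and Myc encode transcription factors of the immediate early class, whose transcripts appear within minutes of a mitogen or an injury without new protein synthesis. Ifrd1 encodes a transcriptional co-regulator induced by growth factors and cell stress, and Pim3 a serine/threonine kinase that acts downstream of cytokine signals and favours survival. Npm1 encodes nucleophosmin, a nucleolar protein of ribosome assembly and a known Myc target. In regenerating liver the immediate early genes precede DNA synthesis, whereas Cdk1, the kinase partner of cyclin B, is made late in the cycle and is low in resting hepatocytes.

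Ratios are log2 values, read as ANIT over olive oil, with each array's median over all probes subtracted. This direction is the likely one, because each sample's title names ANIT and its source labels put ANIT in the second channel, but neither the direction nor the log base is given with the table. Were the table olive oil over ANIT, every sign, call and place given here would turn, and sizes would stay. The deposited medians were -0.53, 0.85, -0.53 and 0.83 on arrays 1 to 4, so the array median changed side with the dye. Pearson's r across probes, which are not independent replicates, was 0.958 to 0.979 between arrays of the same orientation and -0.383 to -0.370 between opposite ones. The difference between orientations, ANIT in Cy5 less ANIT in Cy3 as deposited, is called the dye difference below. It ran from -3.30 to 0.36 over the probes, with a median of -1.25. Averaging both orientations cancels a dye effect in the mean only where it is equal and opposite in both, and never in a single array. Mean ratios still varied with the dye difference over the array, as given below. Centring lowered every mean ratio by 0.15.

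The early genes all had higher ratios than Cdk1. Mean ratios were 1.24 ± 0.12 for Ifrd1 (2.36-fold), 0.84 ± 0.023 for Pim3 (1.79-fold), 0.71 ± 0.11 for Egr1 (1.64-fold), 0.51 ± 0.017 for Npm1 (1.42-fold) and 0.49 ± 0.027 for Myc (1.41-fold). Cdk1 had -0.22 ± 0.033 (1.17-fold lower). In the order of all 958 genes from the highest ratio, they stood at places 10, 19, 28, 46, 49 and 851 (from the lowest, 949, 940, 931, 913, 910 and 108). Without its lowest probe (1020), Cdk1 stood at place 635 from the highest, and with 1 probe for each gene at 601. Npm1 and Myc did not differ beyond their SD, and the gap between Pim3 and Egr1 was little more than the SD of Egr1. The other neighbours in this order differed by more than both SDs.

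Egr1, the zinc finger factor that gives the early growth response family its name, was measured by 1 probe. Its centred ratios were 0.33, 1.19, 0.37 and 0.97 on arrays 1 to 4, above 0 on every array and higher on both arrays with ANIT in Cy3 (dye difference after centring -0.73). As deposited they were -0.20, 2.03, -0.16 and 1.80, so the deposited values lay below 0 on both arrays with ANIT in Cy5. The mean of both orientations was above 0 on either scale (0.71 centred, 0.87 as deposited).

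Because the contrast is between early genes and a cell cycle gene, the 150 bases before the annotated start of Egr1 and of Cdk1 are given from RefSeq promoter windows of the rat assembly GRCr8, 5′ to 3′ on the plus strand. The Egr1 stretch lies at chr18:26736928-26737077 and the Cdk1 stretch at chr20:19265143-19265292, upstream of each gene. Capitals mark CArG boxes, the binding sites of serum response factor, in Egr1. In Cdk1 they mark the CHR element of cell cycle promoters (TTTGAA) and CCAAT boxes (CCAAT, on the printed strand ATTGG), which bind NF-Y.
Egr1: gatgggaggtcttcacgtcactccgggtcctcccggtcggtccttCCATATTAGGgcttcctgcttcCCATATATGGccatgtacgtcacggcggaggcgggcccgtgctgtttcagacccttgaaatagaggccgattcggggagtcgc
Cdk1: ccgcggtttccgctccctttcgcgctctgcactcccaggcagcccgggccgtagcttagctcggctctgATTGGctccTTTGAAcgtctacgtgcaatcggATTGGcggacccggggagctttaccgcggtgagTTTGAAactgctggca

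The Egr1 stretch held 2 CArG boxes, CCATATTAGG from -105 to -96 and CCATATATGG from -83 to -74, counted from the start. The 250 bases before the start held a CArG box in 1.5% of 33469 rat promoter windows, and of the 5 genes described that have a window, in Egr1. Myc had no window in the table. Within its 250 bases, Cdk1 had 2 CHR elements, from -72 to -67 and from -16 to -11, and 3 CCAAT boxes. A CHR element was found in 16.2% of all windows and in none of the early genes' 4 windows, whereas a CCAAT box (34% of all windows) was also present once in Egr1 and once in Ifrd1. The GC box GGGCGG (30.5%) was found 2 times in Ifrd1 and once each in Pim3, Npm1 and Cdk1. Among the 839 windows of genes on the array, the GC box was present in 57.6%, the CCAAT box in 34.6%, the CHR element in 10.3% and the CArG box in 1.31%. The other motifs searched, on both strands, had no match in these 5 windows. They were the EGR site GCGGGGGCG (2.45% of all windows), the CRE TGACGTCA (1.59%), the AP-1 site TGANTCA (6.34%), the STAT site TTCNNNGAA (7.67%), the E-box CACGTG (5.59%), the ATF4 and CEBP site TGATGNAA (3.40%), the E2F site TTTCCCGC (0.813%) and the TATA box TATAAA (12.9%). None of the matches listed overlapped a match of another motif. A match describes the letters only, and no binding was measured.

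Myc, a transcription factor of growth and ribosome production, was measured by 2 probes with close means of 0.43 ± 0.040 and 0.56 ± 0.086. Probe 305 had 0.17, 0.63, 0.19 and 0.71 on arrays 1 to 4, and probe 945 had 0.66, 0.53, 0.69 and 0.37. Both probes were above 0 on every centred array, but their dye differences after centring were opposite in sign (-0.49 and 0.22), so that probe 305 was higher with ANIT in Cy3 and probe 945 with ANIT in Cy5. Averaged over both probes, Myc had 0.41, 0.58, 0.44 and 0.54, the narrowest range over the 4 arrays of the genes described.

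Ifrd1, the co-regulator, had 1.57, 1.07, 1.43 and 0.89 from its single probe. It was the only gene of the 6 that reached 2-fold in the mean, and 3 of its 4 arrays lay above a log2 ratio of 1. As deposited it also stood above 0 on every array (1.04, 1.92, 0.90 and 1.72).

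Pim3, the survival kinase, had 0.99, 0.67, 1.04 and 0.67, in which arrays of the same orientation nearly coincided. As deposited the values were 0.46, 1.52, 0.51 and 1.501. Its mean was 0.84 after centring and 0.996 before.

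Npm1, the nucleolar protein gene, had 0.995, 0.0031, 0.99 and 0.037. Its centred ratio was thus near 1 on both arrays with ANIT in Cy5 and near 0 on both with ANIT in Cy3. The mean of 0.51 rests on averaging both levels. As deposited Npm1 was above 0 on every array, at 0.46, 0.85, 0.46 and 0.86. There the step turned, with higher values for ANIT in Cy3 (dye difference -0.40, against 0.97 after centring). The small SD of 0.017 describes the agreement within an orientation and not the gap between orientations.

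The 5 Cdk1 probes differed among themselves. Their means were -0.097 ± 0.046 for probe 414, -0.72 ± 0.11 for probe 1020, -0.22 ± 0.14 for probe 1137, 0.085 ± 0.11 for probe 1382 and -0.16 ± 0.12 for probe 1467. Of these, 4 lay below 0 and 1 above, and probe 1020 lay far under the rest. Probe 1020 was also the only Cdk1 probe below 0 on all 4 arrays as deposited (-0.57, -0.70, -0.37 and -0.64). After centring it had -0.039, -1.54, 0.16 and -1.46, far below 0 only on the arrays with ANIT in Cy3. As deposited its dye difference was 0.20, so this gap between orientations came with the subtraction of array medians. Without this probe, a setting added after the data were seen, the Cdk1 mean was -0.10 instead of -0.22.

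Averaged over the 5 probes, Cdk1 had -0.036, -0.46, 0.022 and -0.43 on arrays 1 to 4, near 0 with ANIT in Cy5 and below 0 with ANIT in Cy3. As deposited the mean was -0.072. The single probes were further apart, with dye differences from -2.61 (probe 1467) to 0.20 (probe 1020) as deposited. Whether all 5 probes detect the same transcript was not tested.

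**Figure D1:**
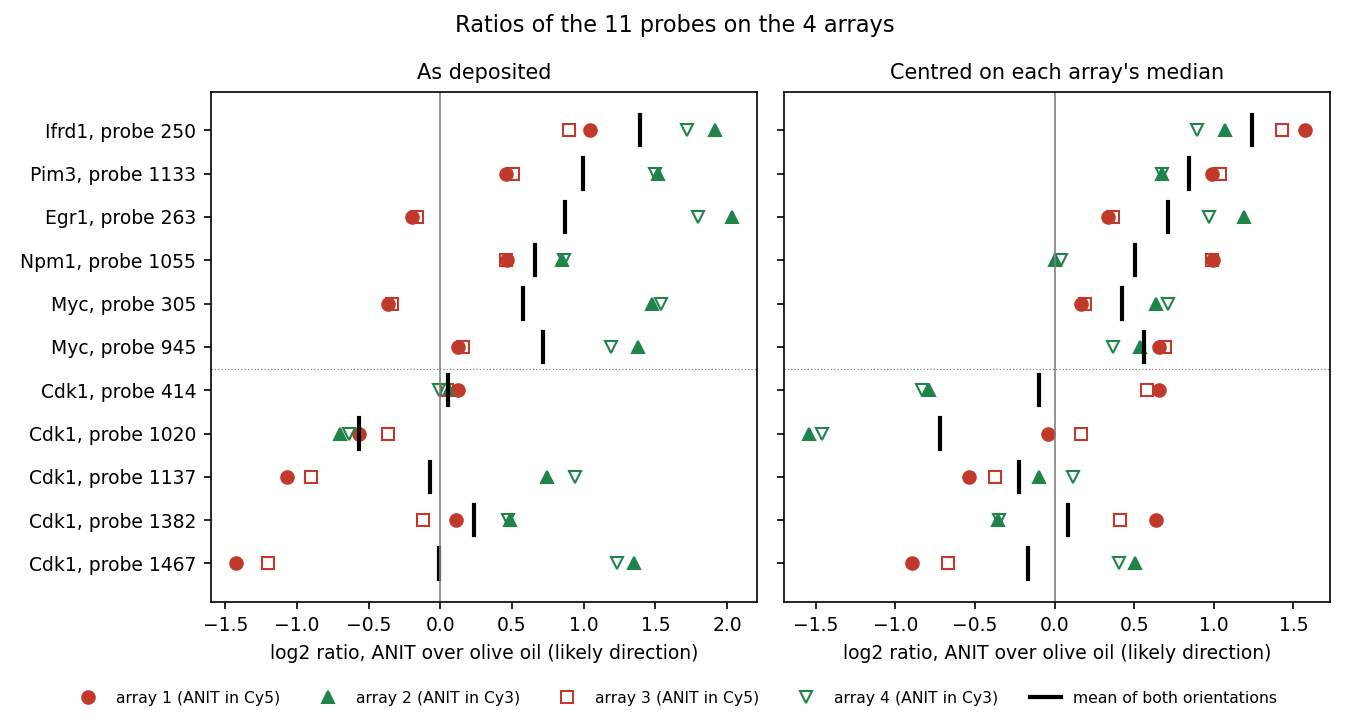
Log2 ratios of the 11 probes (rows) on the 4 arrays, as deposited at left and centred on each array's median at right, with the ANIT pool in Cy5 in red and in Cy3 in green and the mean of both orientations as a black bar. The 6 probes of early genes have centred means from 0.43 to 1.24, and the 5 Cdk1 probes from -0.72 to 0.085.

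The contrast of the early genes with Cdk1 was computed on each array, where centring cancels. The mean of the 5 early genes exceeded Cdk1 by 0.90, 1.16, 0.83 and 1.05 on arrays 1 to 4, with a mean difference of 0.98 ± 0.066, or a 1.98-fold higher ratio. This difference was above 0 on every array and larger than its hybridisation SD, and it carries no test of the treatment. Ifrd1 exceeded Cdk1 by 1.47 ± 0.15, Pim3 by 1.07 ± 0.016, Egr1 by 0.94 ± 0.13, Npm1 by 0.73 ± 0.033 and Myc by 0.72 ± 0.041, each on 4 of 4 arrays. The Pim3 difference was the most even, from 1.01 to 1.13 over the arrays. The Egr1 difference was the least even, at 0.37 and 0.34 with ANIT in Cy5 against 1.65 and 1.4 with ANIT in Cy3. Without probe 1020 of Cdk1 the mean difference was 0.86, and with a single probe for each gene, the one with the smallest SD within dye orientation, 0.84.

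**Figure D2:**
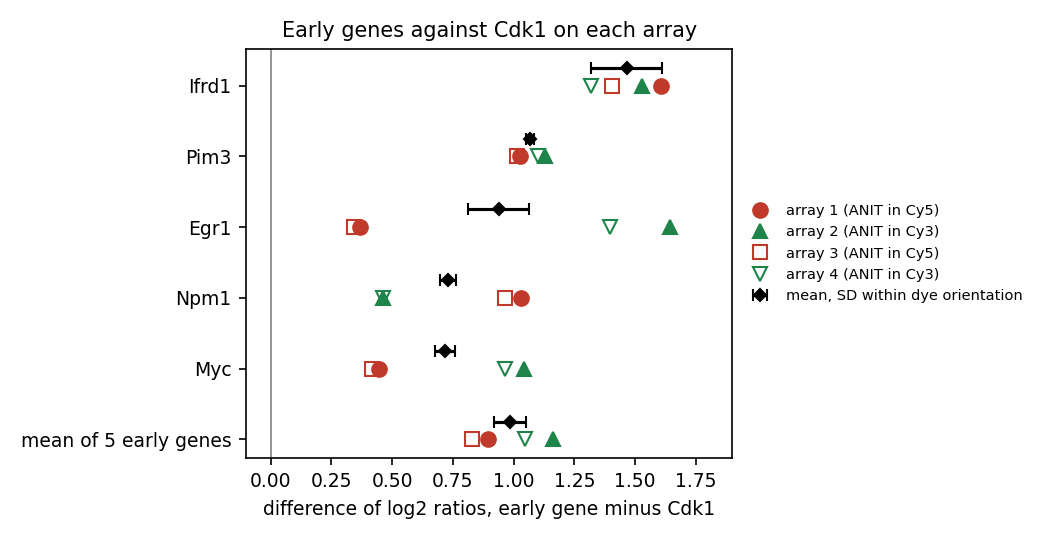
Difference of log2 ratios between each early gene and Cdk1 on every array, with the mean and the SD within dye orientation as a black diamond and bar above the points. All 24 points lie above 0, from 0.34 for Egr1 on array 3 to 1.65 for Egr1 on array 2.

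Taken probe by probe, each of the 6 probes of early genes was set against each of the 5 Cdk1 probes, which gave 30 pairs that share probes and arrays. All 30 mean differences were above 0, from 0.34 (Myc probe 305 less Cdk1 probe 1382) to 1.96 (Ifrd1 less Cdk1 probe 1020). On single arrays 107 of the 120 differences were above 0, and 22 of the 30 pairs were above 0 on every array. Ifrd1 and Pim3 exceeded every Cdk1 probe on every array, in 20 of 20 differences each. The count was 17 of 20 for Npm1, 16 of 20 for Egr1 and 34 of 40 for the Myc probes. By Cdk1 probe, 24 of 24 differences were above 0 against probe 1020, 23 against probe 1137, 21 against probe 1467, 20 against probe 1382 and 19 against probe 414. Differences at or below 0 were found on all 4 arrays, with 25, 29, 26 and 27 of 30 pairs above 0 on arrays 1 to 4. One exception was Npm1 less Cdk1 probe 1467, at 1.89 and 1.66 with ANIT in Cy5 and -0.50 and -0.37 with ANIT in Cy3. In the opposite orientation, Egr1 and Myc probe 305 lay below Cdk1 probes 414 and 1382 on both arrays with ANIT in Cy5. Those differences ran from -0.49 to -0.045, and all were above 0 with ANIT in Cy3.

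**Figure D3:**
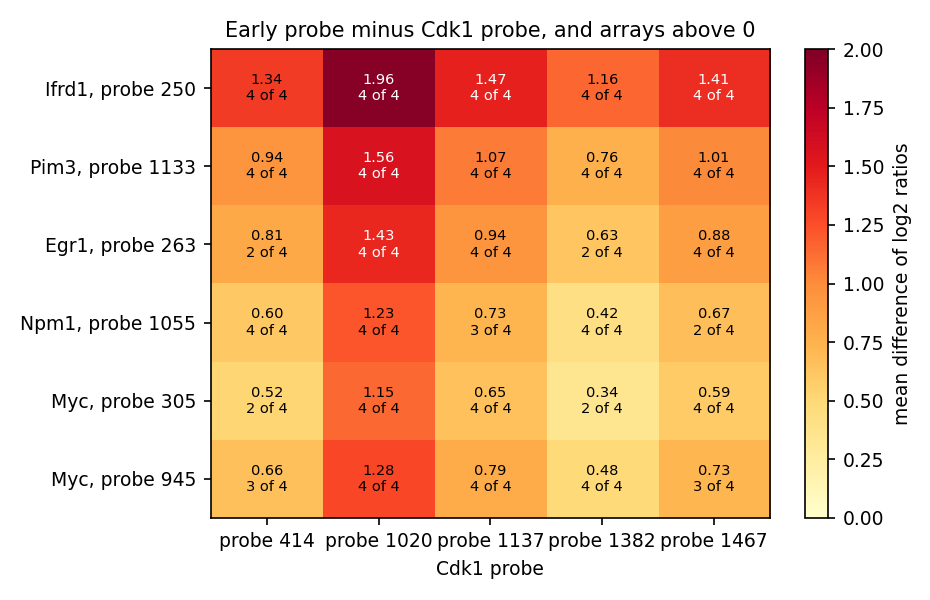
Mean difference of log2 ratios between each probe of an early gene (rows) and each Cdk1 probe (columns), by colour and as the upper number, with the number of arrays above 0 beneath. Every mean is above 0, and the column of Cdk1 probe 1020 holds the largest differences, up to 1.96.

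Of the 6 genes, Ifrd1 alone was at least 2-fold higher with the same sign on every array, a size reached by 1.25% of all 958 genes. At 1.5-fold, 3 of the 6 were higher (Ifrd1, Pim3 and Egr1), against 3.55% of all genes. With limma, which here compares the 2 pools against hybridisation error only, 5 of the 6 were called higher (Benjamini-Hochberg adjusted p under 0.05), against 25.2% of all genes, and Cdk1 was called lower, against 29.2%. The adjusted p from limma was 5.88e-06 for Ifrd1, 5.98e-06 for Pim3, 4.65e-05 for Egr1 and for Npm1, 5.40e-05 for Myc and 0.00197 for Cdk1. A large share of all genes was thus called, and a call by itself sets these genes little apart. Of the 958 genes, 241 were called higher and 280 lower by limma after centring, 475 and 81 on the values as deposited, and 166 and 430 with Hprt1 and Actb set to 0. The early genes were called higher in each of these settings. With the table read as a dye ratio, limma called 450 genes higher and 366 lower, among them Ifrd1, Pim3, Npm1 and Cdk1 higher (Cdk1 adjusted p 0.000734) and Egr1 lower (adjusted p 0.000275), while Myc was not called (adjusted p 0.0859). Cdk1 was not called as deposited (limma adjusted p 0.096) and was called lower without probe 1020 (limma adjusted p 0.035). Over all alternatives its limma adjusted p ran from 0.000174 to 0.958. Without a dye term, which leaves the dye difference in the error, limma called none of the 6 (4 had an unadjusted p under 0.05).

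Sizes of ratios went with the dye difference over the whole array. Probes were split by dye difference into 4 groups of 484. In group 1, with dye differences from -3.30 to -2.18, the SD of the mean ratios was 0.061 and 0 probes reached 2-fold. The SD was 0.21, 0.45 and 0.46 in groups 2, 3 and 4, with 4, 22 and 22 probes at 2-fold. The median ratio also rose with the dye difference, at -0.12, -0.053, 0.068 and 0.11 in groups 1 to 4. Cdk1 probe 1467 lay in group 1. Egr1, Myc probe 305 and Cdk1 probe 1137 lay in group 2, with Egr1 at a dye difference of -2.10. Ifrd1, Pim3, Npm1, Myc probe 945 and Cdk1 probe 1382 lay in group 3, and Cdk1 probes 414 and 1020 in group 4. Spot brightness was not analysed here, and its part in these ratios was not tested. Ratios were widest in groups 3 and 4. In group 3, Cdk1 probe 1382 had a mean of 0.085, against 0.51 to 1.24 for the early probes there. Group 4 held Cdk1 probes 414 and 1020, with means of -0.097 and -0.72, and no early probe to set beside them.

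**Figure D4:**
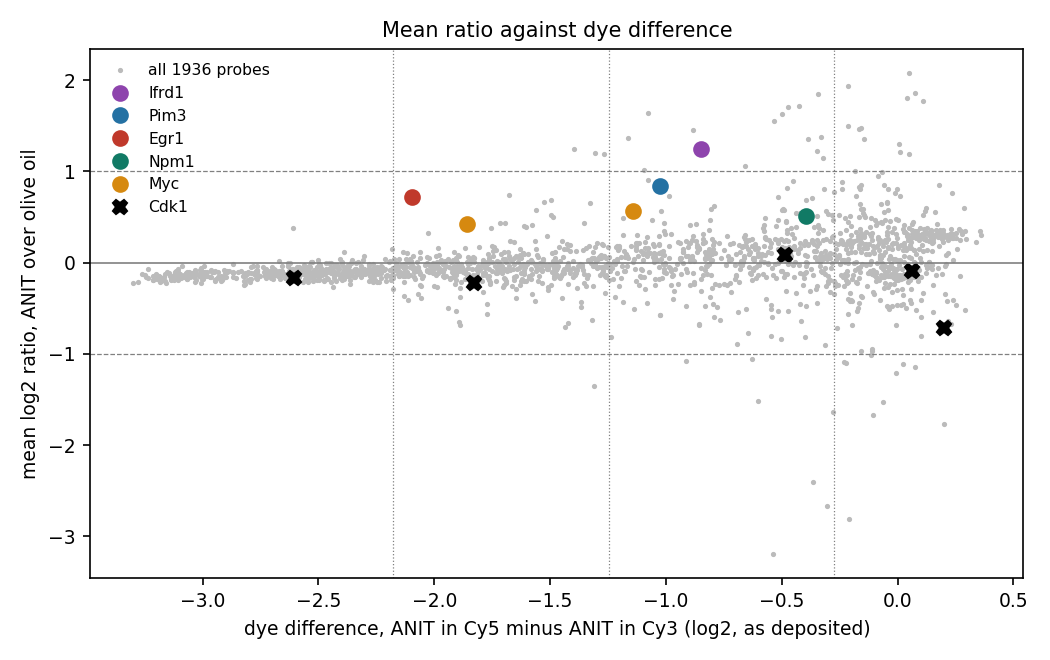
Mean centred log2 ratio of all 1936 probes (grey) against the dye difference as deposited, with the 11 probes in colour, dotted lines between the 4 groups of probes and dashed lines at 2-fold. Early probes lie above 0 from a dye difference of -2.10 to -0.40, and the ratios of all probes narrow toward the left.

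Other genes of the same pathways were read from lists, of which most members were not among the named probes. Besides Egr1, Myc and Ifrd1, 14 of the immediate early genes listed were measured, and limma called 5 higher and 3 lower. Their median ratio was 0.025 against -0.040 for all genes, and 0 reached 2-fold. Cebpd, a transcription factor of the acute phase, had 0.41 ± 0.037, and Irf1, an interferon response factor, 0.33 ± 0.058. Sgk1, a kinase induced by glucocorticoids, had -0.47 ± 0.053 over 4 probes between -0.89 and -0.033, and Id3, an inhibitor of basic helix-loop-helix factors, had -0.33 ± 0.21. Fos, named after its values were seen because it belongs with Egr1 and Myc, had 0.26, 0.31, 0.13 and 0.25 on arrays 1 to 4 (mean 0.24 ± 0.073). As deposited, 9 of the 14 were called higher and 1 lower, and centred on Hprt1 and Actb, 3 higher and 5 lower.

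The JAK, STAT and PIM list includes genes of the cytokine pathway upstream of Pim3. Among its 7 other measured genes, Stat3 was called higher and Stat5b lower by limma, with a list median of -0.037. Stat3, the factor activated by interleukin 6, had 1.87, 0.72, 1.77 and 0.66 on arrays 1 to 4 (mean 1.25 ± 0.059), with both of its probes above 2-fold (1.36 and 1.15). Stat5b, a factor of growth hormone signalling, had -0.14 ± 0.0999, and the interleukin 6 receptor genes Il6st and Il6r had -0.11 ± 0.092 and -0.095 ± 0.12. Stat3 and Pim3 were thus the high members of a list whose other 6 genes lay between -0.14 and 0.00070. As deposited, 3 of the 7 were called higher and 0 lower, with a median of 0.12, and Stat5b had 0.012.

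The list of growth factors, their receptors and MAP kinases had 17 measured genes, with 5 called higher and 4 lower by limma and a median of 0.035. Mapk14, the stress kinase p38 alpha, had 0.81 ± 0.12 and Map2k2, which activates ERK, 0.42 ± 0.059. Fgfr3, a fibroblast growth factor receptor, had -1.67 ± 0.16 and was the 1 gene of the list beyond 2-fold, and the growth factor gene Igf1 had -0.46 ± 0.086. As deposited, 11 were called higher and 3 lower.

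Of the Myc network and its targets, 5 genes besides Myc and Npm1 were measured, and 1 was called higher by limma and 0 lower. The median was -0.011, close to the -0.040 of all genes. Odc1, the polyamine synthesis enzyme and a classical Myc target, had -0.011 ± 0.028 from probes at -0.23 and 0.20. Ldha, the lactate dehydrogenase subunit, had -0.026 ± 0.022 and the nucleoside diphosphate kinase gene Nme1 had -0.018 ± 0.037. Eif2s1, an initiation factor subunit, had 0.13 ± 0.054 from probes at -0.18 and 0.44. As deposited 4 of the 5 were called higher, and centred on Hprt1 and Actb 0 were.

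Of 19 cell cycle genes besides Cdk1, 0 reached 2-fold, and 4 were called higher and 8 lower by limma. Ratios averaged over each gene's probes ran from -0.21 to 0.17 with a median of -0.043. Single probes ran wider, as for Mcm4 (0.73 for probe 427, the others between -0.065 and 0.066) and Cdc25b (-0.28 and -0.074). Ccnd1, the cyclin of G1, had -0.21 ± 0.11, the phosphatase gene Cdc25b -0.18 ± 0.060 and the DNA topoisomerase gene Top2a -0.18 ± 0.088, against 0.17 ± 0.039 for Ccng1, a cyclin induced by p53. The direction of these calls depends on where 0 is set: as deposited, 10 of the 19 were called higher and 0 lower, with a median of 0.11. The median dye difference of these 19 genes was -1.89, against -1.24 for all genes and -1.33 for the 14 immediate early genes. Many thus lay where the ratios of all probes were narrow and had a median below 0. The part of the dye difference in the low spread or the low ratios was not tested. With all 5 probes Cdk1 was the lowest of this list, by less than the SD of Ccnd1, whereas without probe 1020 it lay above 8 of the 19 others.

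**Figure D5:**
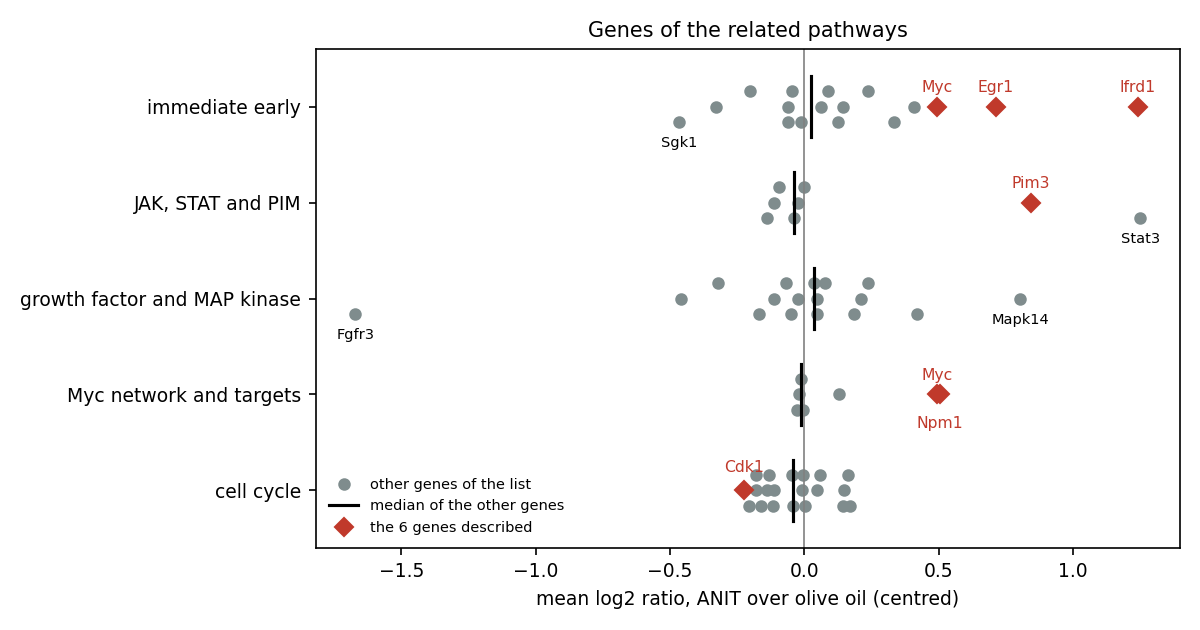
Mean centred log2 ratios of the genes of 5 pathway lists (rows), with the 6 genes described as red diamonds, other genes in grey and the median of the others as a black bar. The early genes lie between 0.49 and 1.24, right of the medians of all lists (-0.043 to 0.035), and only Stat3 lies as far right as Ifrd1.

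The genes with the most similar values over the 4 centred arrays were found by Euclidean distance. Nearest to Ifrd1 were Alox15 (distance 0.41) and Creld2 (0.44), to Pim3 Aldh1a1 (0.28) and Magi1 (0.52), and to Egr1 Mcrip1 (0.66) and Nqo1 (0.66). Nearest to Myc were Ptma (0.13) and Pgs1 (0.18), and to Npm1 Il1r1 (0.15) and Fastk (0.16). Cyp4f6 was nearest to Cdk1 (0.060), followed by Hist1h2bg (0.13). Ptma, which encodes prothymosin alpha, had a mean of 0.49 ± 0.11. Il1r1, the interleukin 1 receptor gene, had 1.06, 0.026, 1.13 and 0.043 on arrays 1 to 4, the same step between orientations as Npm1. Such a distance follows the dye difference as well as the mean and was taken over 4 arrays of 1 pair of pools.

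The table holds ratios and no levels, so the liver label could not be checked against marker levels. The 4 measured hepatocyte markers of 10 listed were all called lower by limma, against 29.2% of all genes, with a median of -0.20 and Apoa1 the lowest at -0.68 ± 0.11. Among 4 cholangiocyte markers of 10, 1 was called higher and 2 lower (median -0.053), with Clu at 0.34 ± 0.043. Among 4 stellate cell markers of 13, 2 were called higher and 2 lower (median 0.020), with Col1a1 at -0.58 ± 0.15. Of 4 endothelial markers of 10, 0 were higher and 2 lower (median -0.12), with Kdr at -0.25 ± 0.20. A single marker each was measured for neutrophils (S100a9, 0.038 ± 0.017), lymphocytes (Il2rg, -0.098 ± 0.099) and red cells (Car1, -1.35 ± 0.082), and none for macrophages. These calls depend on where 0 is set: as deposited, limma called 1 of the 4 hepatocyte markers lower (median -0.049), 2 of the 4 cholangiocyte and 2 of the 4 endothelial markers higher and 0 lower, and 2 of the 4 stellate cell markers higher and 1 lower. As deposited S100a9 was also called higher, and Car1 was called lower on either scale. S100a9 averaged probes at -0.099 and 0.18, and with 1 probe for each gene limma called it lower after centring. Of the spotted controls, Hprt1 had 0.086 ± 0.027 and Actb 0.040 ± 0.068, neither called by limma after centring but both called higher as deposited, while Gapdh was not among the named probes. Whether the share of any cell type contributed to the ratios of the early genes or Cdk1 was not tested.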

How the data were processed

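The values deposited by the authors are log ratios between the channels of each array, and were read as log2. How the authors corrected background or normalized them, and which log base and direction they used, is not stated in the sources used here. No value was missing. The table was read as 1 treatment ratio, turned the same way on every array. Read so, 23 genes reached 2-fold with the same sign on every array, against 0 as a dye ratio, and limma called 521 genes against 816. In the dye ratio reading limma compares the dye orientations of the treatment reading, so these calls cannot tell the readings apart. Opposite orientations correlated negatively, which large dye differences can give under the treatment reading too. The values do not settle the reading. They also cannot tell ANIT over olive oil from its inverse, and that direction was taken from the labels. Of 1936 probes, 1432 had 1 symbol, 19 several and 485 no entry in the platform annotation, and 1429 were matched through Entrez identifiers to RefSeq genes of GRCr8. Arrays were centred on their medians, probes of a gene averaged, and arrays averaged within and then over dye orientations. The limma model (version 3.58.1, R 4.3.3) had a dye term and Benjamini-Hochberg adjustment over all 958 genes. The size rule was a mean of at least 2-fold with the same sign on every array. Both rules were tried on simulated data with smaller dye differences than those measured and the same SD for all genes. Their behaviour at the measured dye differences was therefore not checked. Other steps used Python 3.11.15, numpy 2.4.6 and pandas 2.3.3.

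The genes, lists, motifs and alternatives were chosen with earlier results of these data known. Named were the 6 genes, up to 4 others of each list and 1 of each cell type list by size of the ratio, the 2 nearest genes of each, and the spotted controls. Fos and Mcm4 were added after their values were seen. The alternatives left values as deposited, used Hprt1 and Actb for centring, took the table as a dye ratio or as natural logs, kept 1 probe a gene (that of smallest SD), left out each array, and lowered the limit to 1.5-fold. The limma fit was repeated with a robust prior, with no dye term and at 0.01. Leaving out Cdk1 probe 1020 was added after the data were seen.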

Additional observations from a re-analysis of the deposited data

Results flagged for a closer look

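After centring, 3 of the 5 Cdk1 probes were above 0 on both arrays of one dye orientation and below 0 on both arrays of the other. The mean with ANIT in Cy5 less the mean with ANIT in Cy3 was 1.43 for probe 414, 0.88 for probe 1382 and -1.24 for probe 1467. The 2 orientations carry the same pools, and the difference was not tested. As deposited, the dye difference of probe 414 was 0.062, and its 4 values lay between -0.0087 and 0.13, so its change of side came with the subtraction of array medians. None of the 6 probes of early genes changed side after centring.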

How the results depend on the processing

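Leaving out each array in turn kept all 6 signs, the 1 gene of the 6 at 2-fold and all 6 limma calls. Every value moved by less than its SD. With 2 arrays for each dye orientation this holds for any data, so it says nothing about stability. Over all genes, leaving out an array gave 23 to 24 genes at 2-fold and 419 to 497 limma calls (521 in all). As deposited, ratios were 0.87 for Egr1, 0.65 for Myc, 1.39 for Ifrd1, 0.996 for Pim3, 0.66 for Npm1 and -0.072 for Cdk1, in the order of this list. Centred on Hprt1 and Actb, Myc had 0.43, Pim3 0.78, Npm1 0.44 and Cdk1 -0.29. With 1 probe for each gene Myc had 0.43 and Cdk1 -0.097, and the early genes exceeded Cdk1 by 0.84. Without Cdk1 probe 1020, Cdk1 had -0.10 and the difference was 0.86. Read as natural logs, the difference was 1.42 and the ratios 1.03, 0.71, 1.79, 1.22, 0.73 and -0.32 in the same order, with 3 of the 6 and 43 of all genes at 2-fold. Read as a dye ratio, with the sign turned on arrays 2 and 4, the difference was -0.12 and the ratios -0.36, -0.068, 0.26, 0.17, 0.49 and 0.22. In that reading 0 of the 6 and 0 of all genes reached 2-fold, and limma called 816 genes. Of the 6 ratios, those of Egr1, Myc and Cdk1 changed sign in it, as did the difference. Other genes were not followed there one by one. A 1.5-fold limit gave 3 of the 6 and 55 of all genes. Without the dye term limma called 0 of the 6 and 5 of all genes, and at 0.01 it called 336. Each value already compares both pools within 1 array. No analysis paired over animals or further pools was possible because the arrays carry 1 pair of pools. The 1 pair of pools limits what can be said of the treatment, and signal over background was not analysed here.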
